A study of Bos taurus with 6 samples.

Results

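Transforming growth factor-β (TGF-β) signaling was followed through 10 genes in primary bovine granulosa cells: the ligand genes *TGFB2* and *TGFB3*, the receptor genes *TGFBR1*, *TGFBR2* and *TGFBR3*, the SMAD genes *SMAD2*, *SMAD3*, *SMAD4* and *SMAD7*, and *PMEPA1*, which encodes an inhibitor of the pathway. They were chosen by name, as the rows of the deposited array table that carry these gene symbols. Each gene was read by 1 transcript cluster, a group of probes along its exons, so the 10 genes correspond to 10 of 24415 clusters. The granulosa cells were aspirated from small and medium follicles of slaughterhouse ovaries, frozen, thawed and cultured for 4 d on collagen in serum-free α-MEM with insulin, transferrin, selenite, FSH, IGF1 and androstenedione. On day 2, 3 cultures received for 2 h 50 μM PD98059, which blocks MEK and thereby the phosphorylation of ERK, and 3 cultures received the vehicle DMSO. The medium was then exchanged, by 70% according to the labels, while the methods describe fresh medium free of inhibitor, so whether some inhibitor remained is not settled. Replicates are described as independent cell cultures, and the sources do not say whether they came from separate animals or pools. The p-values therefore measure the spread between these cultures, which may be technical.

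TGF-β ligands are secreted as latent dimers. Once released, they bind TGFBR2, which recruits and phosphorylates the kinase TGFBR1. TGFBR1 in turn phosphorylates SMAD2 and SMAD3, which join SMAD4 and enter the nucleus to regulate target genes. TGFBR3, or betaglycan, is a co-receptor that presents ligands, TGFB2 above all, and also binds inhibin. SMAD7 blocks the receptor complex, and PMEPA1 holds SMAD2 and SMAD3 away from it. Both inhibitors are themselves target genes of the pathway. In the ovary, TGF-β family ligands act on the growth, matrix and steroid synthesis of granulosa cells, and ERK is known to phosphorylate the linker region of SMAD proteins.

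All values are log2 values after Robust Multichip Average (RMA) processing, and a log2 fold change is the PD98059 mean less the DMSO mean. A gene passed the threshold at a Benjamini-Hochberg adjusted p under 0.05 in limma, a moderated linear model fitted on all clusters, with a fold above 1.4. A log2 value of 3.71, the 95th percentile of 363 olfactory receptor clusters, served as an approximate background level. Array medians lay between 4.69 and 4.74 in the PD98059 cultures and between 4.68 and 4.70 in the DMSO cultures. Over all clusters, 0.909% rose past the threshold with PD98059 and 1.78% fell. The cells carried granulosa markers, of which 10 of 10 lay above background and 7 rose with PD98059. Array means over all 10 were 8.93 to 8.95 in PD98059 cultures and 8.08 to 8.17 in DMSO cultures. Of 14 markers of fibroblasts and smooth muscle, 4 fell, *PDGFRB*, *TAGLN*, *CNN1* and *PDGFRA*, and 10 did not pass. All PD98059 values lay below DMSO in 7 of the 14 and above in 2, against 13% and 12.6% of all clusters. Those above were *MYH11* at 0.62 (adjusted p = 0.0694 from limma) and *COL3A1* at 0.20. The brightest, *LUM* and *POSTN*, with DMSO means of 11.77 and 11.51, had log2 fold changes of −0.17 and −0.03. Array means over all 14 were 7.09 to 7.15 in PD98059 cultures and 7.29 to 7.38 in DMSO cultures. Of 5 theca markers 1 rose, *INSL3*, while *CYP17A1* and *GLI1* were near background and *NR5A1* and *LHCGR* above it. Of 6 measured endothelial markers 1 fell, *VWF*, while *PECAM1*, *KDR*, *TEK* and *TIE1* were near background and *CLDN5* above it. Among 8 leukocyte markers, none of which passed, *PTPRC* and *CD48* were near background. The other leukocyte markers lay above background, with DMSO means of 6.67 for *CD68* and 5.98 for *CD14*. The part of these marker shifts in the values below was not tested, and in whole-culture RNA fewer cells of a type and less RNA per cell cannot be told apart.

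Among the 10 genes, *SMAD2* rose and *PMEPA1* fell in the PD98059 cultures. The other 8 did not pass the threshold, of which *TGFBR3* lay at its edge. Thus 2 of 10 genes passed, against 2.69% of all clusters and 4.05% of the clusters with a mean above background, where 1.33% rose and 2.72% fell. An unadjusted p under 0.05 was reached by 6 of the 10, against 19.6% of all clusters. In 6 of the 10 genes the PD98059 values lay wholly above (3 genes) or wholly below (3 genes) the DMSO values, against 25.5% of all clusters (12.6% above and 13% below) and 33.9% of those above background. The median log2 fold change of the 10 genes was −0.13, with 4 values above and 6 below 0, and that of all clusters was 0.01. The median size of the change was 0.30 among the 10 genes and 0.12 among all clusters. With so few genes, chosen when results of these arrays were known, these figures describe the set only.

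**Figure D1:**
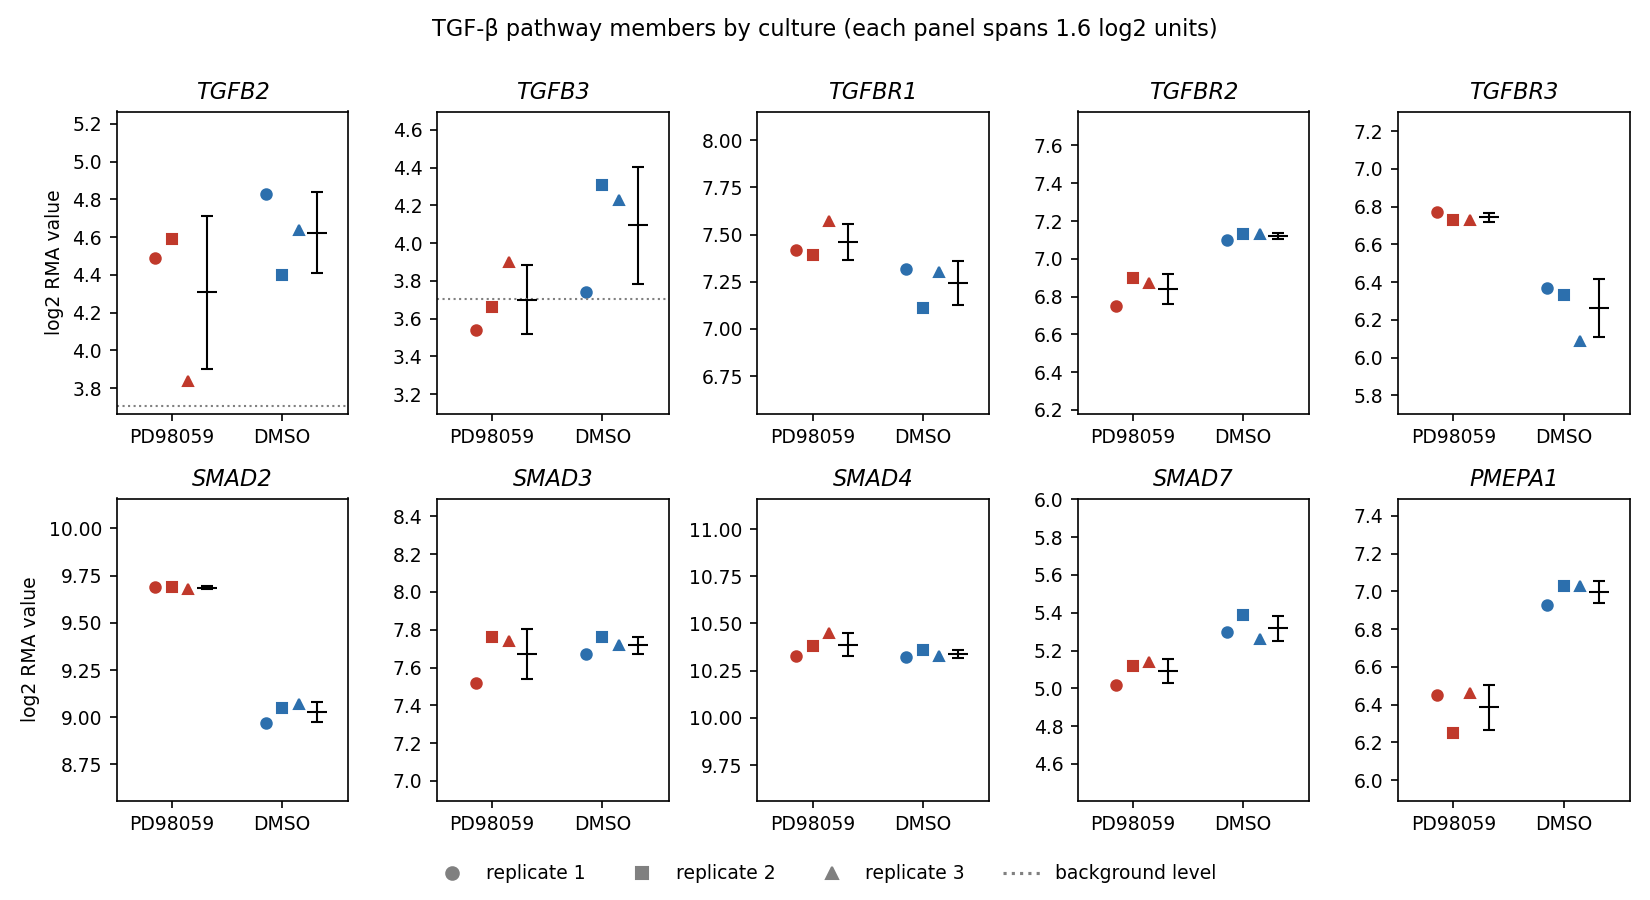
Log2 RMA value (y axis) of each of the 10 genes in the 3 PD98059 cultures (red, left) and the 3 DMSO cultures (blue, right), with the mean and SD beside them (black) and the background level of 3.71 as a dotted line where it falls in the panel. The groups are apart for TGFBR1, TGFBR2, TGFBR3, SMAD2, SMAD7 and PMEPA1, and they overlap for TGFB2, TGFB3, SMAD3 and SMAD4.

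The ligand transcripts were dim and varied between cultures. *TGFB2* (cluster 12736694) had values of 4.49, 4.59 and 3.84 in PD98059 cultures, against 4.83, 4.40 and 4.64 in DMSO cultures. PD98059 replicate 3 was the lowest of the 6 cultures, and the groups overlapped. Its log2 fold change was −0.32 (standard error 0.21, the largest of the 10 genes, adjusted p = 0.475), or −0.08 without PD98059 replicate 3. *TGFB3* (cluster 12696574) had values of 3.54, 3.66 and 3.90 in PD98059 cultures, against 3.74, 4.31 and 4.23 in DMSO cultures. Only 4 of these 6 values exceeded the background level, and DMSO replicate 1 lay within the range of the PD98059 cultures. For *TGFB3* the log2 fold change was −0.39 (standard error 0.17, adjusted p = 0.264), with a 95% interval of −0.80 to 0.01. Neither ligand changed past the threshold, and the width of both intervals leaves a fold of 1.4 on the lower side within them.

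The 3 receptor genes differed in the direction of their values. *TGFBR3* (cluster 12841743), the co-receptor, had values of 6.77, 6.73 and 6.73 in PD98059 cultures, against 6.37, 6.33 and 6.09 in DMSO cultures. The PD98059 values stood close together and above every DMSO value, of which replicate 3 was the lowest. The log2 fold change was 0.48 (standard error 0.09), with an adjusted p of 0.0346 from limma and a fold of 1.39. It thus met the limit on the adjusted p, as 4.55% of all clusters did (1.72% higher and 2.82% lower), but not that on the fold. With the quantile normalization repeated, the log2 fold change was 0.52 and *TGFBR3* passed (adjusted p = 0.0301). In the fits that left out 1 array it did not pass, with adjusted p-values of 0.0756 to 0.106.

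*TGFBR2* (cluster 12796464), the receptor that binds the ligand, had values of 6.75, 6.90 and 6.87 in PD98059 cultures, against 7.10, 7.13 and 7.13 in DMSO cultures. All PD98059 values lay below the narrow range of the DMSO cultures. At −0.28 on the log2 scale (standard error 0.07, adjusted p = 0.0784) the difference did not pass. *TGFBR1* (cluster 12889169), the kinase that phosphorylates SMAD2 and SMAD3, had values of 7.42, 7.39 and 7.57 in PD98059 cultures, against 7.32, 7.11 and 7.30 in DMSO cultures. The groups were apart by a small gap between PD98059 replicate 2 and DMSO replicate 1. Its log2 fold change was 0.22 (standard error 0.09, adjusted p = 0.245), with a 95% interval of 0.00 to 0.43 that does not reach a fold of 1.4.

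*SMAD2* (cluster 12809770), a receptor-activated SMAD, showed the clearest change of the set. It had values of 9.69, 9.69 and 9.68 in PD98059 cultures, against 8.97, 9.05 and 9.07 in DMSO cultures. The PD98059 cultures were nearly identical, with 9.69 ± 0.0058 (SD, n = 3), and far above the 9.03 ± 0.053 (SD, n = 3) of the DMSO cultures. *SMAD2* thus rose by 0.66 on the log2 scale (standard error 0.06, adjusted p = 0.00477), a fold of 1.58, with a 95% interval of 0.51 to 0.81. By p-value it ranked 103 among the 24415 clusters. *SMAD2* passed in 6 of 6 fits without 1 array, with log2 fold changes of 0.63 to 0.68 and adjusted p-values of 0.0238 to 0.0331. It did not pass when the fold of 1.4 was made part of the test (limma's treat), where only 0.156% of all clusters passed.

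*SMAD3* (cluster 12689440), the other receptor-activated SMAD, had values of 7.52, 7.76 and 7.74 in PD98059 cultures, against 7.67, 7.76 and 7.72 in DMSO cultures. The groups overlapped, with PD98059 replicate 1 as the lowest of the 6 cultures. Its log2 fold change was −0.04 (standard error 0.09, adjusted p = 0.833), and the 95% interval ran from −0.25 to 0.16. *SMAD4* (cluster 12808560), the partner that both of these SMADs share, had values of 10.33, 10.38 and 10.45 in PD98059 cultures, against 10.32, 10.36 and 10.33 in DMSO cultures. The groups overlapped here too. Its log2 fold change was 0.05 (standard error 0.07, adjusted p = 0.733), with a 95% interval of −0.11 to 0.21. For *SMAD3* and *SMAD4* these intervals exclude a fold of 1.4 in either direction.

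*PMEPA1* (cluster 12717097), which encodes a membrane protein that sequesters SMAD2 and SMAD3, had values of 6.45, 6.25 and 6.46 in PD98059 cultures, against 6.93, 7.03 and 7.03 in DMSO cultures. All PD98059 values lay below all DMSO values, and PD98059 replicate 2 was the lowest. *PMEPA1* fell by 0.61 on the log2 scale (standard error 0.08, adjusted p = 0.0129), a fold of 1.53, with a 95% interval of −0.81 to −0.41. The size of the change held when 1 array was left out, at −0.65 to −0.54. The call did not: without DMSO replicate 1, 2 or 3 the adjusted p was 0.0531, 0.0558 and 0.0595. It was also lost in limma with a block for the replicate number (adjusted p = 0.0679). Without any one of the PD98059 arrays *PMEPA1* passed. *SMAD7* (cluster 12810353), the inhibitory SMAD, had values of 5.02, 5.12 and 5.14 in PD98059 cultures, against 5.30, 5.39 and 5.26 in DMSO cultures. The PD98059 values lay below all DMSO values, but at −0.22 on the log2 scale (standard error 0.07, adjusted p = 0.153) the difference did not pass.

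**Figure D2:**
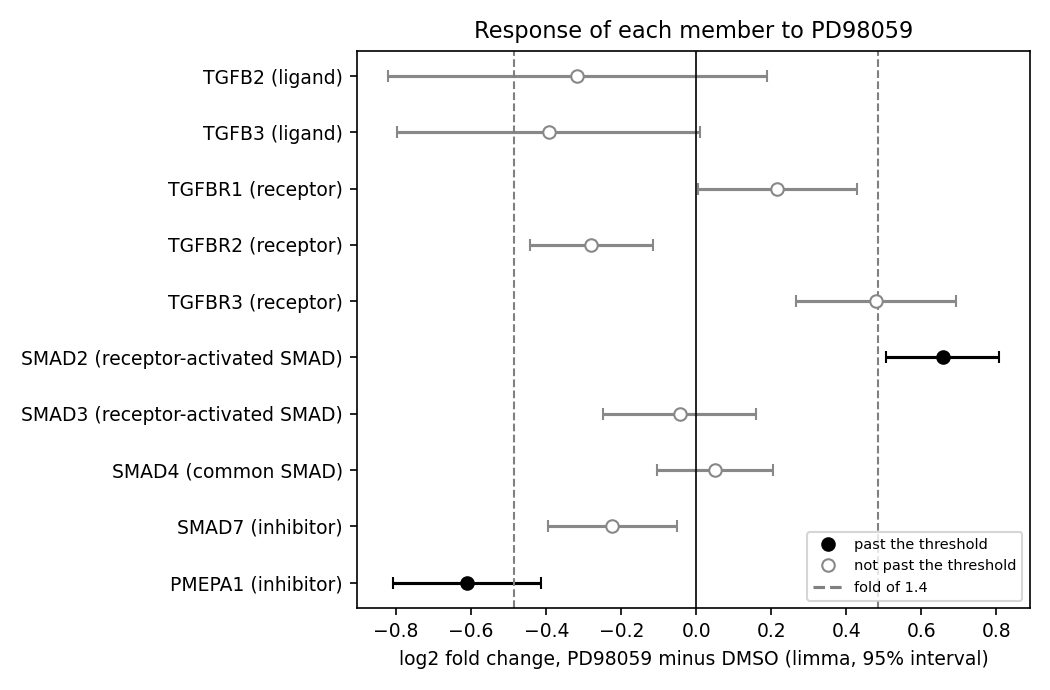
Log2 fold change (x axis, PD98059 minus DMSO) of each of the 10 genes (rows, with their role) from limma, with 95% intervals as bars and a fold of 1.4 as dashed lines. SMAD2 at 0.66 and PMEPA1 at −0.61 passed the threshold (filled), and TGFBR3 at 0.48 lay just inside the fold limit.

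The responses of related genes were compared by taking, in each culture, the log2 difference between 2 genes, in 5 pairs. *SMAD2* minus *SMAD3* was larger in PD98059 than in DMSO cultures by 0.70 (standard error 0.08), with no overlap between the groups. Among the receptors, the difference was 0.50 (standard error 0.10) for *TGFBR1* minus *TGFBR2* and −0.76 (standard error 0.11) for *TGFBR2* minus *TGFBR3*, again with no overlap. Each of these 3 pairs had an exact two-sided permutation p of 0.1, the smallest that 3 cultures against 3 allow, and 0.167 after adjustment over the 5 pairs, so no pair could pass at this size. *TGFB2* minus *TGFB3* differed by 0.08 (standard error 0.45, exact p = 1) and *SMAD3* minus *SMAD4* by −0.09 (standard error 0.06, exact p = 0.2), both with overlap. *SMAD2* and *SMAD3* are close paralogs, and whether their probes share sequence was not tested.

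**Figure D3:**
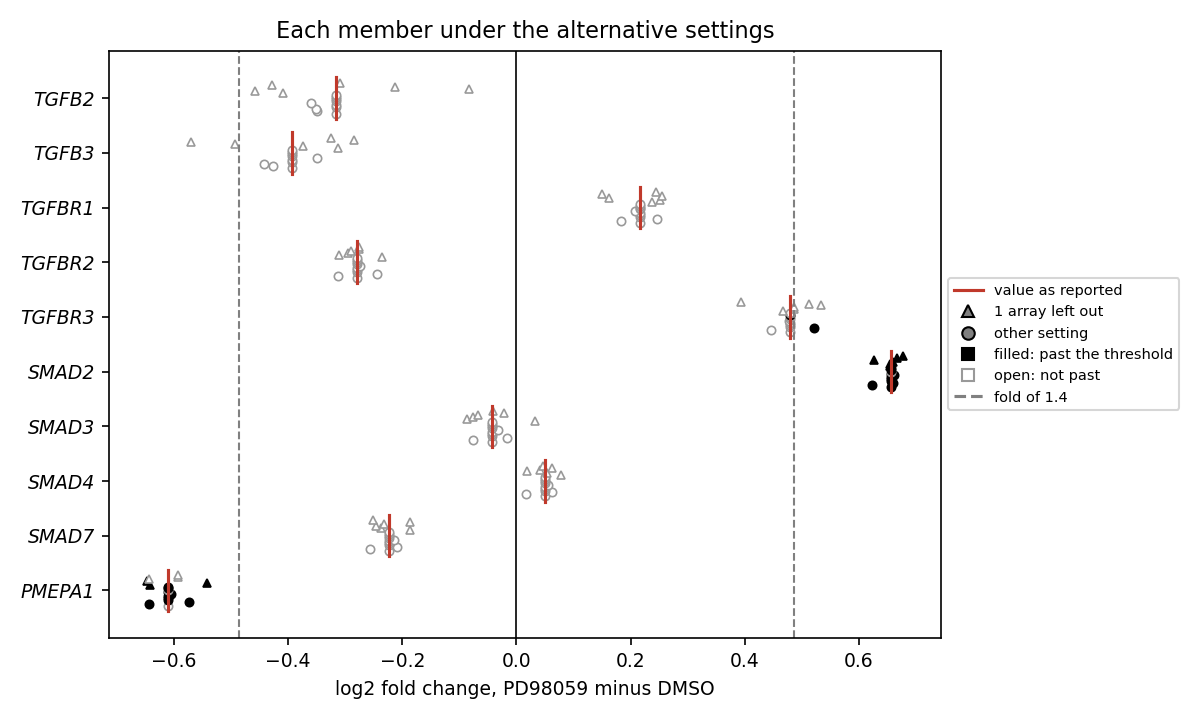
Log2 fold change (x axis, PD98059 minus DMSO) of each of the 10 genes (rows) as reported (red line), in the 6 fits without 1 array (triangles) and under the other settings (circles), with symbols filled where the gene passed and a fold of 1.4 as dashed lines. SMAD2 stayed between 0.62 and 0.68 and PMEPA1 between −0.65 and −0.54, while TGFB2 ranged from −0.46 to −0.08.

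Around the 10 genes, falls were found in 3 of 5 lists of other pathway genes, mostly among the response genes. Of 132 genes in 5 lists, 126 were measured. Of these 12 fell, against 1.78% of all clusters and 2.72% of those above background, and 0 rose, a share close to the 0.909% of all clusters. An unadjusted p under 0.05 from limma was reached by 9 genes on the higher and 40 on the lower side, against 19.6% of all clusters in either direction. With the unmoderated test 0 rose and 6 fell, against 1.43% of all clusters in either direction. The count of 12 was 5 without DMSO replicate 1, 6 without DMSO replicate 2 or 3, and 8 to 10 without a PD98059 replicate. Of 38 measured response genes, 9 fell, 0 rose and 29 did not pass, with a median log2 fold change of −0.135. Among the 38, 3 had an unadjusted p under 0.05 from limma on the higher side and 18 on the lower. *TAGLN*, which fell, and *COL1A1*, *COL1A2*, *COL3A1*, *ACTA2* and *POSTN*, which did not pass, stand in the list of fibroblast and smooth muscle markers as well. *COL1A1* at −0.46 met the limit on the adjusted p (0.0464 from limma) but not that on the fold. *COL1A2* stood at −0.21, *COL3A1* at 0.20, *ACTA2* at −0.12 and *POSTN* at −0.03. In the list of fibroblast and smooth muscle markers *PDGFRA*, *PDGFRB* and *CNN1* also fell, while *MYH11* stood at 0.62 and did not pass. The part of those cells in the values of the response genes was not tested.

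*CCN2*, which encodes a matricellular protein and is a classical TGF-β target, had values of 7.11, 7.02 and 7.05 in PD98059 cultures, against 8.30, 8.24 and 8.40 in DMSO cultures. It fell by 1.25 on the log2 scale (standard error 0.07, adjusted p = 0.00139) and passed in all 17 alternative settings. *TIMP3*, an inhibitor of metalloproteases, fell by 1.04, the transcription factor *SNAI2* by 1.01, the matrix protein *TGFBI* by 0.91 and the actin-binding *TAGLN* by 0.77, with adjusted p-values from limma of 0.0087 or lower. The other 4 falls, of *ADAM19*, *BHLHE40*, *NEDD9* and *FN1*, had log2 fold changes of −0.58 to −0.49. Of 6 fits without 1 array, *ADAM19* passed in 4, *BHLHE40* in 2, and *NEDD9* and *FN1* in 1 each. The last 3 of these were named after their values were seen, as the remaining response genes that passed. Of the bright response genes that did not pass, *TIMP1* stood at −0.38, inside the fold limit (adjusted p = 0.0269), *POSTN* at −0.03 and *CDH2* at 0.07.

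Of 22 measured co-receptors and receptor regulators, 2 fell and 0 rose. An unadjusted p under 0.05 from limma was reached by 0 on the higher and 8 on the lower side, against 19.6% of all clusters in either direction. *NEDD4L*, a ubiquitin ligase that acts on activated SMAD2 and SMAD3, had values of 4.04, 3.61 and 3.86 in PD98059 cultures, against 4.55, 4.58 and 4.55 in DMSO cultures, and fell by 0.72 on the log2 scale (standard error 0.11, adjusted p = 0.0194). PD98059 replicate 2 lay below the background level. *CAV1*, which encodes the caveolin of membrane pits that take up TGF-β receptors, fell by 0.50, a value at the fold limit. Both calls were lost in most fits without 1 array, with adjusted p-values of up to 0.0803 for *NEDD4L* and 0.101 for *CAV1*. In this list *FKBP1A*, which encodes a protein that binds TGFBR1, stood at −0.11, *CD109* at −0.23 and *CLU* at −0.10.

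Of 28 measured SMAD partners and regulators, *JUNB*, an AP-1 factor, fell by 0.55 and passed in 1 of 6 fits without 1 array. None rose. An unadjusted p under 0.05 from limma was reached by 5 on the higher and 7 on the lower side, against 19.6% of all clusters in either direction. The brightest that did not pass were *ZEB2* at 0.31 (adjusted p = 0.06 from limma), *USP9X* at 0.23 and *RUNX2* at 0.35 (adjusted p = 0.0534). *USP9X* encodes a deubiquitinase, and *ZEB2* and *RUNX2* encode transcription factors that bind SMADs. Of 18 measured genes of latency and ligand activation none passed in either direction, with 1 on each side at an unadjusted p under 0.05. The integrin subunits *ITGAV* at 0.11 and *ITGB1* at 0.00 and the protease *HTRA1* at 0.01 were among the bright genes of this list. Of 20 measured genes of non-SMAD signaling none passed either. In this list 0 higher and 6 lower had an unadjusted p under 0.05 from limma, against the same 19.6% of all clusters. The GTPase genes *RHOA*, *CDC42* and *RAC1* stood at −0.03, −0.18 and 0.01. With the unmoderated test none of the 126 genes rose. No cluster could be matched by name to *TGFB1*, *LTBP4*, *ENG*, *EP300*, *TPM1* or *TAB3*, so these list genes have no value here.

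**Figure D4:**
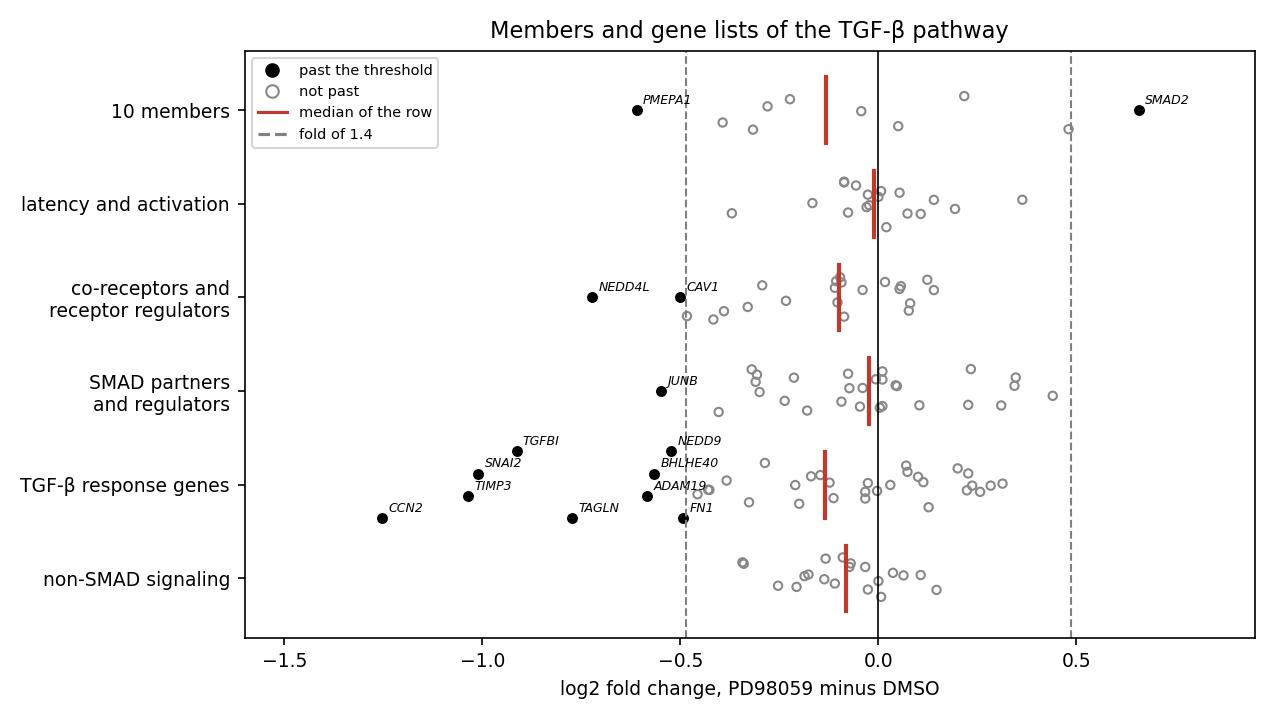
Log2 fold change (x axis, PD98059 minus DMSO) of the 10 genes and of the measured genes in 5 lists of the pathway (rows, 1 point a gene, spread vertically for legibility), filled where a gene passed the threshold, with row medians in red and a fold of 1.4 as dashed lines. In the lists 12 genes passed, all on the lower side, and 9 of them lie in the row of response genes, whose median was −0.135.

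In the order of protein-coding genes of the ARS-UCD2.0 annotation, 34 measured genes lay within 2 places of a member, of which 10 were near background. With limma 0 of them passed, a share close to the 2.69% of all clusters, and 0 passed with the unmoderated test, while 13 had an unadjusted p under 0.05, against 19.6% of all clusters. Near *SMAD2*, *IER3IP1* had a log2 fold change of 0.11 and *ZBTB7C*, which lies between *SMAD2* and *SMAD7*, of −0.22. *CDC7*, a kinase gene of DNA replication next to *TGFBR3*, had values of 7.88 ± 0.045 in PD98059 cultures and 7.45 ± 0.025 in DMSO cultures (SD, n = 3 each) and stood at 0.44 on the log2 scale, short of the fold limit (adjusted p = 0.0156). *DYM*, next to *SMAD7*, stood at −0.30 (adjusted p = 0.0425), also short of it. These 2 were chosen after their values were seen, as the neighbours with an adjusted p under 0.05.

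The clusters whose centred values lay closest to those of *SMAD2* over the 6 arrays were *FAM78A*, with a root mean square difference of 0.028 on the log2 scale, *CDH12* with 0.035 and *SERPINE2* with 0.036. *SERPINE2*, which encodes protease nexin-1, had values of 11.96, 12.01 and 12.06 in PD98059 cultures, against 11.33, 11.40 and 11.38 in DMSO cultures. For *PMEPA1* the closest were *NUCB2* with 0.030, *MSN* with 0.040 and *SLC2A13* with 0.041. *NUCB2*, which encodes the calcium-binding nucleobindin-2, had values of 7.91, 7.71 and 7.88 in PD98059 cultures, against 8.43, 8.46 and 8.44 in DMSO cultures. These are the smallest differences among 13266 named clusters above background. With 6 arrays in 2 groups, they mark clusters with a treatment difference of like size and little else.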

How the data were processed

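RNA of 3 PD98059-treated and 3 DMSO-treated cultures was labelled and hybridized to GeneChip Bovine Gene 1.0 ST arrays. The authors ran RMA in Expression Console, which covers background correction, normalization between arrays and summary of the probes of a cluster. The deposited log2 values, with 2 decimals, equal those of the series' value table in 146490 of 146490 cells. Scanner files were not used here, so background correction could not be varied. No genome build of the clusters is named in the labels or methods. Columns were matched to samples by name, with 0 left over. Because the arrays were normalized together, a change common to most transcripts would be hidden.

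The values were fitted with limma 3.58.1 in R 4.3.3 (lmFit and eBayes, treatment as the only factor, 2.8 prior and 4 residual degrees of freedom) on all 24415 clusters, without a filter. The methods name an analysis of variance and the same limits. The fitting step was tested on simulated data with known changes. Clusters were named by matching their RefSeq accessions to the ARS-UCD2.0 gene table (16051 clusters) or else by their symbol (3636), and a list gene with several clusters is given by the brightest. Precision is limited by the small number of arrays, with a median SD within groups of 0.12, as moderated by limma. Standard errors of pair differences use the SDs of both groups. Exact permutation tests used scipy 1.17.1, and tables pandas 2.3.3 and numpy 2.4.6 under Python 3.11.15.

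The 10 genes and all lists were chosen with earlier results of these data known. The text names every member, from each list the 6 genes at most that passed with the largest change and the 3 brightest that did not, and the 3 clusters most like each member that passed. Alternative fits used a block for the replicate number, a variance trend, array weights, an unmoderated test, limma's treat or no fold limit. Alternative values were centred on array medians, quantile-normalized again, filtered at the background or the median level, or averaged over a gene's clusters, and each array was left out in turn. One item of the response list is not reported here and was left out of all list counts. Experiments on protein, hormones and knockdown are not analysed here.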

Additional observations from a re-analysis of the deposited data

How the results depend on the processing

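Of the 10 genes, 9 kept the sign of their log2 fold change in every setting tried. The exception was SMAD3, at 0.033 without PD98059 replicate 1, with −0.087 to 0.033 over the fits without 1 array. The difference between TGFB2 and TGFB3 also changed sign, with −0.14 to 0.41 over these fits and values below 0 without PD98059 replicate 1 or 2 or DMSO replicate 2. The count of members that rose was 1, and 2 with the quantile normalization repeated or with no fold limit, through TGFBR3. The count of members that fell was 1, and 0 to 1 without 1 array. With treat, 0 rose and 0 fell. The list genes that fell numbered 12, with 6 in the unmoderated test, 1 with treat, 19 with no fold limit and 5 to 10 without 1 array, where the lowest count came without DMSO replicate 1 and 6 genes fell without DMSO replicate 2 or 3. None rose in any of the 17 alternatives. Over all clusters 656 passed, with 350 in the unmoderated test, 38 with treat, 1110 with no fold limit and 271 to 491 without 1 array. TGFB2 and TGFB3 were below the filter at the median level and have no value there.

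Same-numbered cultures deviated together only weakly, with correlations of 0.05, 0.04 and 0.04 over all clusters, each above those with other numbers (at most −0.0025). The labels do not say whether cultures with the same number shared a batch or pool, and this was not tested. The main fit took the cultures as unpaired. With the replicate block, 237 clusters passed, 1 member rose, 0 members fell (PMEPA1 at an adjusted p of 0.0679) and 5 list genes fell. The causes of these changes were not tested. For TGFB3, whose values straddle the background level, signal limits what can be seen.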
